A study of Mus musculus with 3 samples.

Results

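Gdf9, Bmp15 and Zp3 encode proteins that the mouse oocyte secretes. All rows with these gene names in the 3 lists of mRNA 5-methylcytosine (m5C) sites were taken, and they held 9 distinct sites of the 40298 in all lists, in 3 of 8353 genes. The germinal vesicle (GV) oocyte list held 3 of these sites among 15910, the metaphase II (MII) oocyte list held 4 among 20694, and the 1-cell embryo list held all 9 among 24996. The sites came from RNA bisulfite sequencing, in which an unmethylated C is read as T, so that the share of reads with an unconverted C gives the m5C level of a site. Coverage counts the reads that showed C or T there. The libraries are called GV, MII and 1-cell for short.

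All 3 groups were wild-type C57BL/6J, with females of 7 to 8 weeks, and each was 1 pooled library without a replicate. Oocytes at the GV stage, arrested before meiotic maturation, came from ovaries 48 h past an injection of PMSG (pregnant mare serum gonadotrophin, 10 IU). MII oocytes, which have matured and await fertilization, received PMSG at 10 IU and then hCG (human chorionic gonadotrophin) at 5 IU, and were taken 12 h later. The 1-cell embryos came from matings with C57BL/6J males and were taken 24 h after hCG, with both hormones given at 5 IU. About 200 embryos went into a library, as the series text has it. All samples were treated with 10 IU/ml hyaluronidase, by which the study states that the zona pellucida was removed. The ages and hormone doses above are those of the labels. In its methods the study has another hCG dose for the MII oocytes, other doses of both hormones for the embryos and a wider age range for the oocyte donors. Polyadenylated RNA is given by the labels and RNA depleted of ribosomal RNA by the methods, and the conversion protocol is worded differently for oocytes and embryos. Stage and library preparation cannot be told apart. The deposited embryo list is not the one tabulated with the study, and only the deposited one was used.

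Gdf9 and Bmp15 are members of the transforming growth factor beta (TGF-beta) family. Both are made as precursors in the oocyte, are cleaved, and act on the surrounding granulosa and cumulus cells through type I and type II serine/threonine kinase receptors and SMAD proteins. Zp3 is a glycoprotein of the zona pellucida, the coat around the egg, and has long been studied for a part in sperm binding. The growing oocyte makes these mRNAs and transcription largely stops by the end of its growth. Later stages therefore hold mainly stored maternal mRNA that is translated, deadenylated or degraded. The m5C of mRNA is written mainly by NSUN2, at sites often followed by G (Type I), and by NSUN6 at the motif CTCNA in DNA letters with the first C methylated (Type II).

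The sequences around the 9 sites are shown to let the contexts be compared. Each runs 5′ to 3′ along the spliced transcript, read from the GRCm38 genome with the GENCODE M21 exons, with 10 bases on either side and the m5C as the capital. Sites are named by gene and by the number of nucleotides (nt) from the transcript start.
Gdf9 nt 495: acccagcaacCaggtgacagg
Gdf9 nt 1121: tcccccaaaaCgagtgtgaac
Gdf9 nt 1238: ctagggcggtCaggcatcggt
Bmp15 nt 27: agattgggtgCaggccaggtt
Bmp15 nt 332: ggttaggaatCtgctgaaaag
Zp3 nt 121: tggcttttgcCgggtggaact
Zp3 nt 220: ctttttggcaCggggaagctg
Zp3 nt 827: ctctccagttCacggtggatg
Zp3 nt 956: acaagacttcCcagagttggt

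None of the 9 sites was at CTCNA, so all were classed as Type I by exclusion, and which enzyme wrote them was not tested. Of the 1552 other C of these transcripts, 2.45% began CTCNA. The 4 bases after a site held 2.11 G on average, compared with 0.831 G after the other C. The base at +2 was G at 6 of the 9 sites (66.7%), and at 24.8% of the other C. The sequence of Zp3 nt 220 had G at each of the 4 next positions, the most among the 9, whereas Bmp15 nt 332 and Zp3 nt 956 had 1 G each. In predicted folds of 101-nt windows (37 °C), the site base was paired at 5 of the 9 sites, against 53.6% of the other C. No test was made of these shares, as the sites are few and share transcripts.

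Gdf9 (ENSMUSG00000018238) lies on the plus strand of chromosome 11, from 53431023 to 53437904 (GRCm38), and its coding transcript has 2 exons and 1793 nt. All of its 3 sites were in the coding sequence (CDS). The site at nt 495 (position 53433793) was base 1 of codon 130, 9 nt before the end of exon 1. Those at nt 1121 (53437232) and nt 1238 (53437349) were base 3 of codons 338 and 377 in exon 2, 117 nt apart, in the part that encodes the C-terminal growth factor domain.

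Bmp15 (ENSMUSG00000023279), on the minus strand of chromosome X from 6314107 to 6320721, has 2 exons and a transcript of 3060 nt. Both of its sites were in the 5′ untranslated region (UTR), in exon 1. The site at nt 332 (6320390) was 27 nt before the start codon, and that at nt 27 (6320695) was close to the transcript start, 305 nt upstream. No site was listed in the 1176 nt of its CDS or the 1526 nt of its 3′ UTR.

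Zp3 (ENSMUSG00000004948) is on the plus strand of chromosome 5, from 135980099 to 135988624, with 8 exons and a transcript of 1323 nt. Its 4 sites were all in the CDS. The sites at nt 121 (135980219) and nt 220 (135980318) were base 2 of codons 29 and 62 in exon 1, 99 nt apart. Those at nt 827 (135985620) and nt 956 (135987341) were base 3 of codons 264 and 307, in exons 5 and 6. No other annotated gene overlapped any of the 9 sites.

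**Figure D1:**
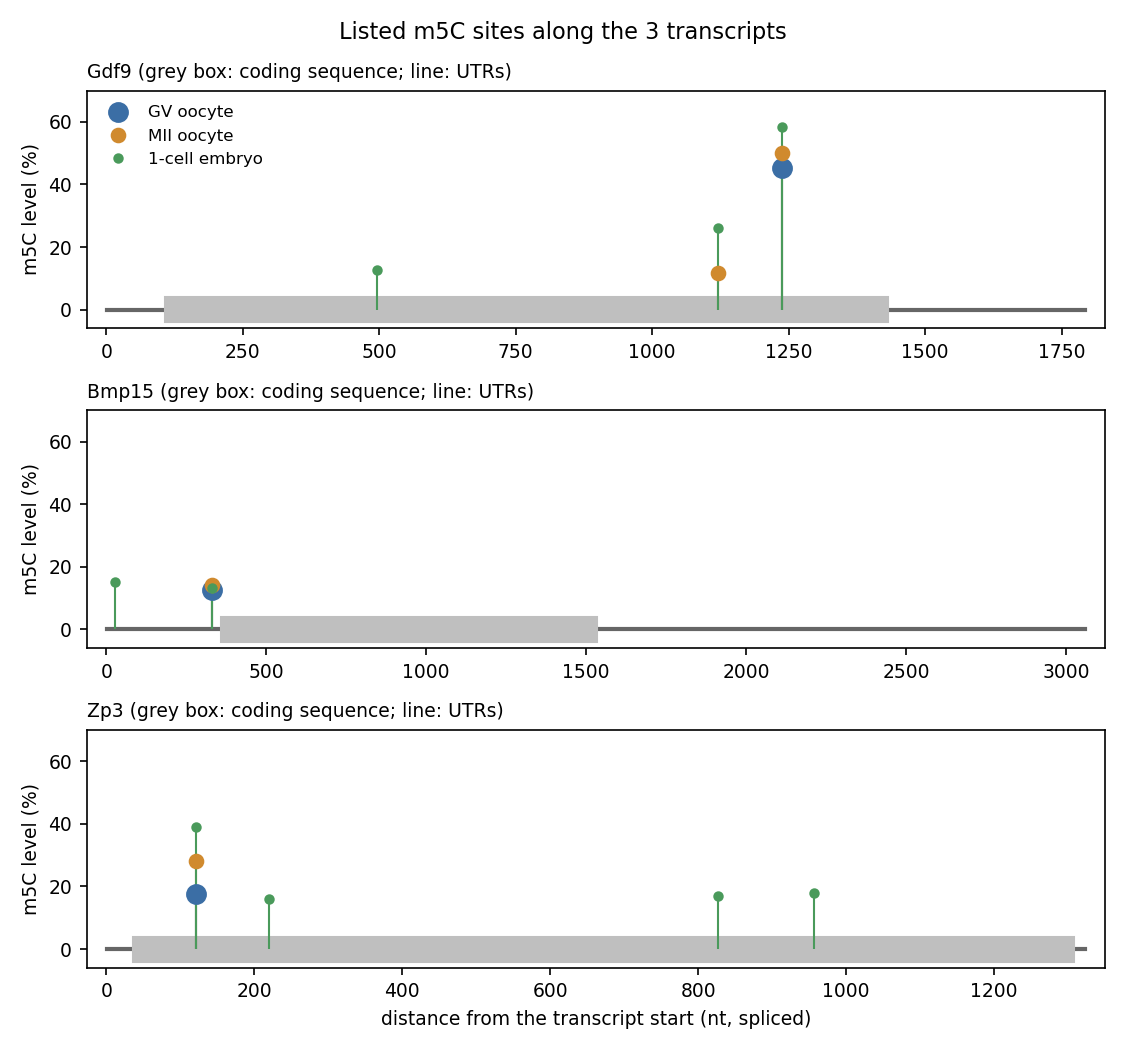
Position of each listed site along the spliced transcript (x axis, nt from the transcript start) and its m5C level (y axis, percent), with the coding sequence as a grey box and 1 point per library, drawn smaller for later stages. The Gdf9 and Zp3 sites are in the coding sequence and the 2 Bmp15 sites are before it, and only 1 site of each gene has a point for all 3 libraries.

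The reads over listed sites summed to 4475058 in GV, 5285011 in MII and 2616279 in 1-cell, with median coverages of 121, 107 and 58 reads. No listed site had under 20 reads, a level under 10% or under 5 unconverted reads. A site missing from a list can therefore be unmethylated, methylated under 10%, poorly covered or removed by another filter of the authors. Of 11 oocyte marker genes fixed for this work, 10 had a site in some list. Of 13 cumulus and granulosa cell markers 3 had one, with 0 reads at listed sites in GV, 145 in MII and 48 in 1-cell. Of 7 sperm markers 1 had a site, and none in the embryo. A listed site needs methylation as well as RNA, so these counts do not measure the other cell types.

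In Gdf9 the levels were higher at each later stage. The site at nt 1238 had the highest level of the 9, and it stood at 45.3% in GV (16549 reads, exact 95% interval 44.6% to 46.1%), 50.1% in MII (6767 reads, 48.9% to 51.3%) and 58.3% in 1-cell (648 reads, 54.4% to 62.2%). The 3 intervals did not overlap. All intervals here cover read counting alone, since the reads carry no molecular identifiers.

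Gdf9 nt 1121 was not listed in GV. Its level was 11.6% in MII (5382 reads, 10.7% to 12.4%) and 26.0% in 1-cell (605 reads, 22.5% to 29.6%). In GV the neighbour at nt 1238 was covered by 16549 reads, so the transcript was deeply read 117 nt away, but the coverage at nt 1121 itself is not in the list. Gdf9 nt 495 was listed in the embryo alone, at 12.7% (10.6% to 14.97%) of 932 reads, the highest coverage of the 3 Gdf9 sites in that list.

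In Bmp15 the levels lay close together. Bmp15 nt 332 was at 12.5% in GV (5063 reads, 11.6% to 13.5%), 14.1% in MII (4264 reads, 13.1% to 15.2%) and 13.1% in 1-cell (2366 reads, 11.8% to 14.6%). These intervals overlapped between all 3 libraries, and the level stayed close to the 10% limit of the lists. Bmp15 nt 27 was listed in the embryo alone, at 15.1% (6.75% to 27.6%) of 53 reads, an interval wide enough to hold every level of nt 332.

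In Zp3 the site at nt 121 had the largest change in level of the 3 sites found in every list. It was at 17.7% in GV (7358 reads, 16.9% to 18.6%), 28.0% in MII (1858 reads, 26.0% to 30.1%) and 38.9% in 1-cell (149 reads, 31.1% to 47.2%). The 3 intervals did not overlap.

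The other Zp3 sites were listed in the embryo alone, at 15.8% (12.7% to 19.5%) of 467 reads at nt 220, 17.0% (8.07% to 29.8%) of 53 reads at nt 827 and 18.0% (11.7% to 25.7%) of 128 reads at nt 956. These 3 intervals overlapped each other, and all ended below the lower bound of nt 121, 31.1%.

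**Figure D2:**
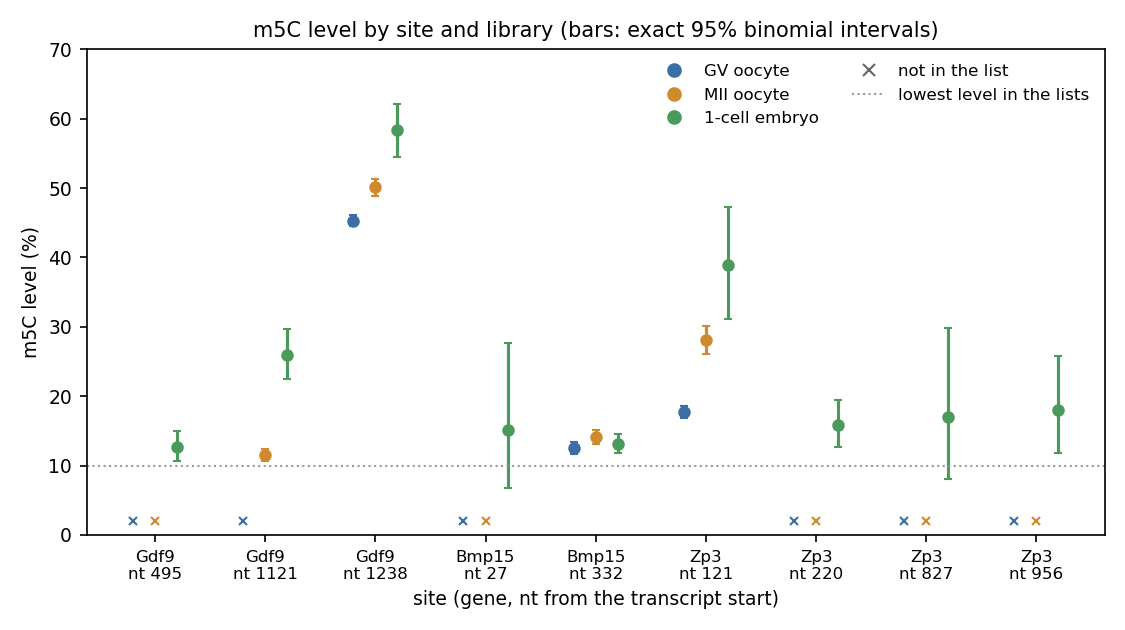
The m5C level (y axis, percent) of each of the 9 sites (x axis, gene and nt from the transcript start) in the 3 libraries, with exact 95% binomial intervals, and crosses near the axis for sites not in a list. Gdf9 nt 1238 and Zp3 nt 121 step upward from GV to 1-cell, while the 3 points of Bmp15 nt 332 lie from 12.5% to 14.1%.

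From GV to MII, 2 of the 3 shared sites were higher and none lower. Across all 12954 sites in both oocyte lists, 19.6% were called higher and 0.965% lower (Fisher's exact test on reads, two-sided, Benjamini-Hochberg adjusted p under 0.05), which makes 20.6% in either direction. The median change was 4.87 points. These tests compare the reads of 2 libraries, not the stages. Deep sites were called more often: of the 555 with at least 1000 reads in both oocytes 76.2% were higher, with a median change of 5.63 points.

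Zp3 nt 121 rose by 10.3 points (95% interval 8.12 to 12.6), with an adjusted p of 1.69e-19 in the exact test. This change lay at the 75.8 percentile of all shared sites. Gdf9 nt 1238 rose by 4.78 points (3.37 to 6.19, exact test, adjusted p = 2.37e-09), at the 49.5 percentile. This call was lost when reads were divided by 5, as if 5 reads stood for 1 molecule. Bmp15 nt 332 differed by 1.57 points (0.191 to 2.97), which did not pass (exact test, adjusted p = 0.103, unadjusted p = 0.0272), and lay at the 30.5 percentile.

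From MII to 1-cell, 3 of the 4 shared sites were higher and none lower. Over all 8015 shared sites, 51.3% were called higher and 2.45% lower, and the median change was 12.7 points. Of the 731 shared sites with at least 1000 reads in MII, as all 4 had, 64.4% were higher, with a median change of 8.02 points. Gdf9 nt 1121 showed the clearest difference, 14.4 points (10.9 to 18.1, exact test, adjusted p = 4.28e-18), and it was called under every alternative that kept the site. Gdf9 nt 1238 rose by 8.24 points (4.22 to 12.2, exact test, adjusted p = 0.000237).

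Zp3 nt 121 rose by 10.9 points (3.14 to 19.1, exact test, adjusted p = 0.0139). The calls of Gdf9 nt 1238 and Zp3 nt 121 were lost with reads divided by 5 and with Holm adjustment, a stricter correction. Bmp15 nt 332 differed by -0.950 points (-2.64 to 0.795), and this was not called (exact test, adjusted p = 0.393). Against all shared sites these changes lay at the 53.8 percentile for Gdf9 nt 1121, 38.3 for Gdf9 nt 1238, 44.9 for Zp3 and 14.1 for Bmp15, and the 3 called members lay near the middle of all sites. The median change was smaller at deep sites, and percentiles among deep sites alone were not taken.

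Over the whole course from GV to 1-cell, 2 of 3 shared sites were higher, where 66.1% of all 6478 shared sites were higher and 1.05% lower, with a median change of 19.2 points. Of the 684 with at least 1000 reads in GV, as all 3 had, 83.5% were higher, with a median change of 14.7 points. Zp3 nt 121 rose by 21.2 points (13.7 to 29.2, exact test, adjusted p = 9.35e-09) and Gdf9 nt 1238 by 13.0 points (9.11 to 16.8, exact test, adjusted p = 4.47e-10). For Bmp15 nt 332 the difference was 0.622 points (-0.984 to 2.30, exact test, adjusted p = 0.522), at the 10.7 percentile of all shared sites. The 3 comparisons share libraries, so they are not independent of each other.

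The sites were also set beside others of a like starting level. Among the 2807 sites listed at every stage with a GV level from 10% to 20%, the medians were 14.1%, 18.8% and 31.7% in the order of the stages. Of these sites, 7.20% changed by no more than Bmp15 nt 332 over the whole course, and 58.7% by no more than Zp3 nt 121. A site that fell under 10% or lost its reads in a later library is not among them. Falls from so low a level are therefore partly cut off, and the limits of the lists partly fix these shares. The 448 sites with a GV level of 40% to 50% had medians of 44.8%, 54.1% and 70.0%, and 25.2% of them changed by no more than Gdf9 nt 1238.

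The changes of the 3 genes were compared with each other as ratios of odds ratios, with Woolf 95% intervals and no test. From GV to 1-cell the odds of an unconverted read were multiplied by 2.96 at Zp3 nt 121, by 1.69 at Gdf9 nt 1238 and by 1.06 at Bmp15 nt 332. The ratio of Zp3 to Bmp15 was 2.80 (1.94 to 4.03), that of Gdf9 to Bmp15 was 1.60 (1.29 to 1.98), and that of Zp3 to Gdf9 was 1.75 (1.21 to 2.53). With reads divided by 5, the intervals of Gdf9 to Bmp15 and of Zp3 to Gdf9 held 1.

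By step, Zp3 exceeded both other genes from GV to MII, with ratios of 1.58 (1.33 to 1.87) to Bmp15 and 1.49 (1.31 to 1.70) to Gdf9, while Gdf9 and Bmp15 could not be told apart there (1.06, 0.926 to 1.21). From MII to 1-cell, Gdf9 and Zp3 both exceeded Bmp15, with ratios of 1.51 (1.21 to 1.88) and 1.77 (1.22 to 2.58), and the interval of Zp3 to Gdf9 held 1 (1.17, 0.801 to 1.72). With reads divided by 5, the intervals of both ratios to Bmp15 at this second step held 1.

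The coverage of the sites differed between the libraries as well. At nt 1238, Gdf9 was read 16549 times in GV, 6767 times in MII and 648 times in 1-cell. Zp3 nt 121 had 7358, 1858 and 149 reads in the same order. Bmp15 nt 332 had 5063, 4264 and 2366 reads. The order of the 3 sites by coverage was Gdf9, Zp3, Bmp15 in GV and Bmp15, Gdf9, Zp3 in the embryo. In bulk samples, fewer cells of a type and less RNA per cell cannot be told apart. The labels give polyadenylated RNA, so deadenylated mRNA could also be read less, and this was not tested.

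From GV to MII the coverage of Zp3 nt 121 was 3.96-fold lower and that of Gdf9 nt 1238 was 2.45-fold lower, where the median over all shared sites was 1.15-fold lower. Relative to that median both were more than 2-fold lower (3.43-fold and 2.12-fold), which held for 1.62% of all shared sites, while 0.695% were more than 2-fold above it. Bmp15 nt 332, at 1.19-fold lower, lay near the median. A smaller drop than that of Zp3 was seen at all but 0.0540% of the shared sites.

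From MII to 1-cell the coverage was 12.5-fold lower at Zp3 nt 121, 10.4-fold lower at Gdf9 nt 1238, 8.90-fold lower at Gdf9 nt 1121 and 1.80-fold lower at Bmp15 nt 332, with a median of 3.14-fold lower over all shared sites. The 3 sites of Gdf9 and Zp3 were more than 2-fold below the median, as were 14.3% of all shared sites. From GV to 1-cell the factors were 49.4 for Zp3, 25.5 for Gdf9 and 2.14 for Bmp15, and 16.7% of all shared sites were more than 2-fold below the median factor of 3.57. Relative to the median, Zp3 was 13.8-fold and Gdf9 7.15-fold lower over this course, and 28.9-fold and 14.9-fold lower when scaled by the summed reads of each whole list. For Bmp15 the direction turned with the scaling by whole lists. Its coverage ratio was 1.67 times the median ratio but 1.25-fold lower when scaled by those summed reads. The whole lists hold different numbers of sites, 15910 in GV and 24996 in 1-cell. Scaled by the summed reads of shared sites alone, Zp3 was 13.9-fold and Gdf9 7.21-fold lower. Bmp15 was at 0.604-fold lower, above the scale as with the median.

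The deepest sites of the GV oocyte give a closer comparison. There were 40 sites with at least the 5063 reads of Bmp15 nt 332, and all were listed in MII and 39 in 1-cell. The share of the GV reads left in MII ran from 25.3% to 203%, with a median of 85.9%, and Zp3 nt 121 was the lowest. In the embryo the share ran from 2.03% to 97.5%, with a median of 24.6%, and Zp3 nt 121 was again the lowest. Gdf9 kept 3.92% and Bmp15 46.7%, and 34 of the 39 sites kept less than Bmp15. In MII Bmp15 had kept 84.2%, and 17 of the 40 sites kept less, so that its share was near the median there and above it in the embryo.

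**Figure D3:**
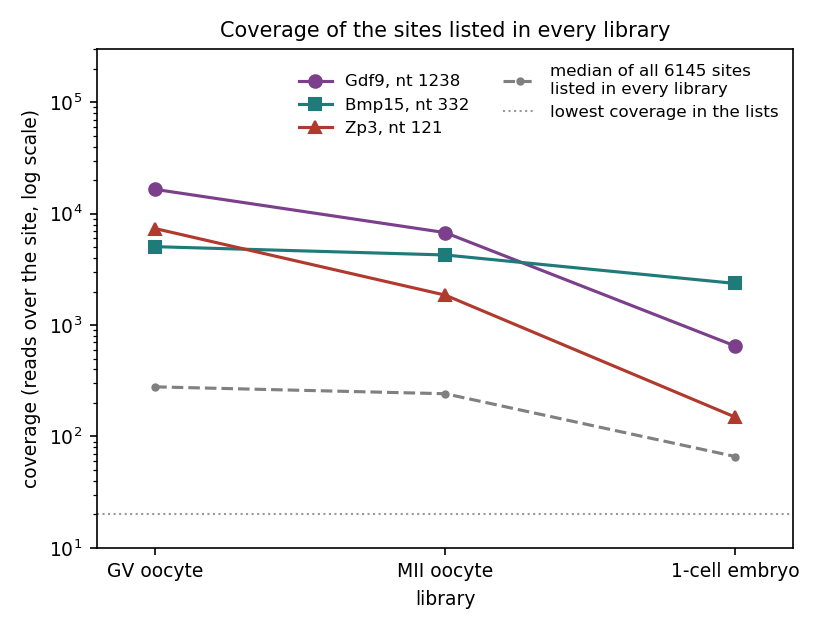
Coverage (y axis, reads over the site, log scale) of the 3 sites listed in every library, by library (x axis), with the median of all 6145 such sites as a dashed line. Bmp15 nt 332 starts lowest of the 3 at 5063 reads and ends highest at 2366 reads, while Zp3 nt 121 ends at 149 reads.

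Unconverted and converted reads were also followed apart. At Zp3 nt 121 the unconverted reads numbered 1305, 521 and 58 in the order of the stages, and the converted reads 6053, 1337 and 91. From GV to 1-cell the former were 22.5-fold and the latter 66.5-fold lower. At Gdf9 nt 1238 the unconverted reads numbered 7499, 3390 and 378 and the converted reads 9050, 3377 and 270, which is 19.8-fold and 33.5-fold lower. These are read numbers without scaling between libraries, and the ratio of the 2 factors at a site is another form of its change in level. At Bmp15 nt 332 the unconverted reads numbered 634, 601 and 311 and the converted reads 4429, 3663 and 2055, which is 2.04-fold and 2.16-fold lower.

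**Figure D4:**
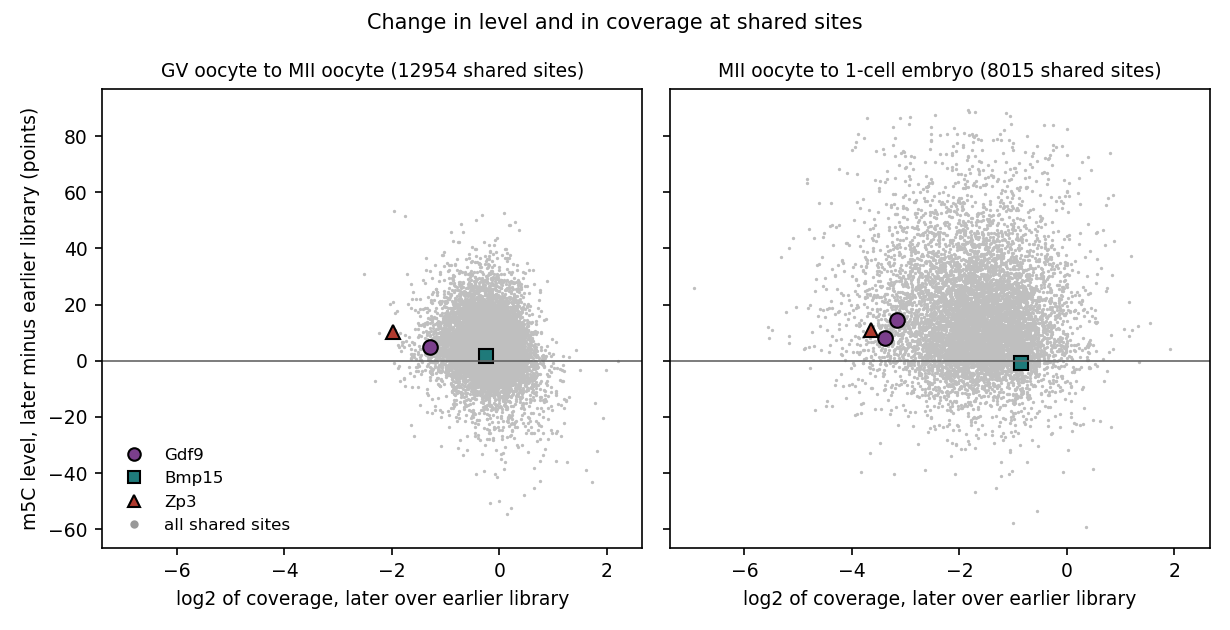
Change in m5C level (y axis, points, later minus earlier library) against the log2 ratio of coverage (x axis) at sites shared by the 2 libraries of each panel, with all sites in grey and those of the 3 genes as large symbols. Zp3 and Gdf9 lie to the left of most sites in both panels, and Bmp15 lies nearer to 0 on both axes.

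Coverage also varied along a transcript. In 1-cell the Bmp15 sites differed 44.6-fold (2366 and 53 reads) over 305 nt, where the 1205 genes with 2 sites in that list had a median of 1.45-fold between their sites. The lower value was at nt 27, next to the transcript start. The Zp3 sites differed 8.81-fold (53 to 467 reads), with a median of 2.36-fold for the 596 genes with 4 sites, and those of Gdf9 1.54-fold (605 to 932 reads), with 1.93-fold for 809 genes with 3 sites. Zp3 nt 121 had 149 reads and nt 220, 99 nt further on, 467 reads. A transcript's coverage is thus given here by site and not as a single value.

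The 5 sites listed in the embryo alone were at 12.7% to 18.0%. All 5 were in transcripts with another site covered by 1858 to 6767 reads in MII. Whether these 5 were below 10%, poorly covered or removed by another filter in the oocytes cannot be read from the lists. The median level of the members was 17.7% in GV, 21.1% in MII and 17.0% in the embryo, over 3, 4 and 9 sites, beside 19.5%, 19.8% and 23.8% over all sites. The median of the members in the embryo includes the 5 sites that the oocyte lists lack, and does not show a course.

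The lists hold only sites that passed a binomial test against the unconverted background of their gene. This background rate, at which a binomial test returns the deposited p-value, could be recovered where the p-value was above its floor of 1e-300, which among the members was in the embryo alone. It was 0.315% for Gdf9 (2 sites), 0.194% for Bmp15 (1 site) and 0.415% for Zp3 (4 sites, 0.415% to 0.416%), against a median of 0.354% (quartiles 0.227% and 0.534%) over 6379 genes. The levels of these 7 sites were 38.1 to 93.7 times the background of their gene, a description that the list limits partly fix.

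Other genes of the pathway and the egg coat were taken from a list of 67, which held genes of the zona and egg surface, TGF-beta family ligands, receptors, SMAD proteins and their regulators, proprotein convertases that cleave such precursors, antagonists, and oocyte transcription factors. It was chosen with earlier results of these data known. Of these, 24, 25 and 26 genes had a listed site in the order of the stages. From GV to MII 22 of 62 shared sites were higher and 1 was lower, with a median change of 6.02 points. From MII to 1-cell 26 of 50 were higher and 2 lower, with a median of 11.3 points, and from GV to 1-cell 30 of 41 were higher and 0 lower, with 17.2 points. With reads divided by 5, the numbers higher were 1, 4 and 9. Over all shared sites, with the reads undivided, 19.6%, 51.3% and 66.1% were higher and 0.965%, 2.45% and 1.05% lower, as given above.

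Among the egg coat genes, Zp1, which crosslinks zona filaments, had the largest called change between the oocytes. Its only site in the oocyte lists (chromosome 19, position 10919414) was at 45.1% of 2783 reads in GV and at 74.0% of 1034 in MII (exact test, adjusted p = 2.60e-55). In 1-cell this site was at 96.7% of 120 reads, and the 2 Zp1 sites listed there had a median of 57.8%. Zp2, the zona protein cleaved after fertilization, had no site in the oocyte lists and 2 in the embryo. Astl, which encodes ovastacin, the protease that cleaves Zp2, had 1, 2 and 6 sites. Oosp1, which encodes an oocyte-secreted protein, had 1 site, in the embryo. Like the sites of Gdf9 and Zp3 found in every list, that of Zp1 was read far less in 1-cell than in GV, with a coverage ratio of 0.0431. The median ratio was 0.280 over all shared sites and 0.229 at those with at least 1000 reads in GV. Such a fall was not particular to these genes, since the shared sites of Furin had ratios from 0.0348 to 0.521.

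Lhx8, an oocyte transcription factor, had the next largest called change between the oocytes, from 13.4% (112 reads) to 36.5% (104 reads, exact test, adjusted p = 0.00144). The 1-cell level of this Lhx8 site was 75.8% (33 reads). The 4 Lhx8 sites in the 1-cell list had a median of 19.1%. Another Lhx8 site, at 12.0% of 259 reads in MII and 10.3% of 145 in 1-cell, was not called. Of the ligands, Bmp6, another oocyte-made family member, had a site at 25.2% of 782 reads in GV, at 30.7% of 681 in MII and at 85.1% of 47 in 1-cell (exact test of the last step, adjusted p = 2.61e-12). The 10 Bmp6 sites in the 1-cell list had a median of 18.9%. From MII to 1-cell, its other shared sites changed by 32.4 points (22 reads in 1-cell) and 13.8 points (131 reads), both called. The rest changed by 3.37 points (222 reads) and -6.21 points (59 reads) and were not called. Smad2, which carries the signal of Gdf9 in its target cells, had a site that went from 40% to 100% of 25 reads at that step (exact test, adjusted p = 1.41e-05). The other shared Smad2 sites were deeper and not called, at 21.1% of 147 reads and 15.3% of 59 reads, and at 11.7% of 231 reads and 13.7% of 73 reads. The lower sites, named after their values were seen, were 1 each in Smad4 between the oocytes and in Smurf1 and Tgfb2 from MII to 1-cell. The receptors, through which the ligands signal, had few shared sites, of which 0 of 10, 2 of 5 and 1 of 3 were higher from GV to MII, from MII to 1-cell and from GV to 1-cell. For the SMADs and their regulators these counts were 8 of 21, 6 of 16 and 8 of 14, and for the other ligands 3 of 10, 5 of 9 and 7 of 9. The proprotein convertases, chiefly Furin with 12, 14 and 23 sites in the lists, had 9 of 15, 8 of 13 and 10 of 11 higher. Over all shared sites, 19.6%, 51.3% and 66.1% were higher. Of the sites shared by the oocytes, those of the receptors had 20 to 234 reads in GV and those of Furin 427 to 2205. Deep sites were called more often, so these counts do not compare the parts of the pathway. The antagonists had 1 site in all, in Bambi in 1-cell.

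The genes most like each member were ranked by distance over 6 values, the median level and log2 coverage in the 3 libraries, each divided by its standard deviation over genes, among the 3270 other genes with a site in every list. Nearest to Zp3 were Khdc3 (18.9%, 26.9% and 32.2%), Dnmt1, the maintenance DNA methyltransferase (22.3%, 27.9% and 45.4%), and Lamb1, a laminin chain (17.9%, 22.4% and 31.9%). Their coverage also fell steeply from GV to 1-cell, from 5417 to 164 reads for Khdc3, 5061 to 193 for Dnmt1 and 3392 to 153 for Lamb1. Nearest to Gdf9 were Tle6 (29.9%, 41.0% and 63.3%), H1foo, the linker histone of oocytes (28.5%, 32.1% and 37.7%), and Mtus1 (38.0%, 47.8% and 59.2%). From GV to 1-cell the coverage went from 7202 to 1178 reads for Tle6, 10933 to 658 for H1foo and 3337 to 498 for Mtus1. Nearest to Bmp15 were E2f5 (10.3%, 14.2% and 16.6%), Ooep (12.6%, 16.1% and 15.9%) and Trim61 (17.6%, 24.6% and 28.3%). Here the coverage went from 2637 to 1400 reads for E2f5, 10550 to 4013 for Ooep and 5659 to 1234 for Trim61. No member was among the 3 genes nearest to another. By rank of the 3270 genes, Zp3 was 37 and Bmp15 166 from Gdf9, Zp3 was 162 and Gdf9 258 from Bmp15, and Gdf9 was 540 and Bmp15 765 from Zp3.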

How the data were processed

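RNA bisulfite libraries of mouse GV oocytes, MII oocytes and 1-cell embryos were analysed, 1 per stage. The authors trimmed reads with cutadapt and Trimmomatic 0.36, aligned them to the converted genome (GRCm38) with HISAT2 and the remainder to the converted transcriptome with Bowtie2 2.2.9, and kept sites that passed filters on quality, depth, level and conversion-resistant reads or genes. The authors deposited coverage as a count of reads, without normalization. The authors deposited the m5C level as a fraction of unconverted reads, given here in percent. The deposited p-value comes from the authors' binomial test, with a conversion rate set per gene, and served here to recover that rate.

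Unconverted reads were taken as level times coverage, whole to within 2.90e-05 reads. Sites shared by 2 lists were tested with Fisher's exact test over all shared sites. Intervals of levels are exact (Clopper-Pearson) and those of differences are Newcombe's, at 95%. Coverage ratios were divided by the median ratio over shared sites. Alternatives were coverage minimums of 50 and 100 reads, a level minimum of 20%, reads divided by 5, Holm adjustment and other scalings. Sites were placed in the transcript with the longest CDS of GENCODE M21 (Ensembl 96), and gene symbols of the fixed lists were matched by Ensembl identifier. Named genes were all listed sites of the 3 genes, the 2 sites of the pathway list with the largest called change in each comparison, and the 3 genes nearest to each member. Zp2, Astl, Oosp1, Smad4, Smurf1, Tgfb2, Furin, Bambi, Zar1 and Padi6 fall outside this rule and were named after their values were seen. The members and lists were chosen with earlier results of these data known. The scripts for the exact test and the background rate were tested on simulated data. Tests used scipy 1.17.1 with Python 3.11.15, and folds used ViennaRNA 2.7.2.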

Additional observations from a re-analysis of the deposited data

How the results depend on the processing

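A level minimum of 20% left 1, 2 and 3 sites of the 3 genes in GV, MII and 1-cell, with median levels of 45.3%, 39.1% and 38.9%, and left 1 site higher from GV to MII and 1 from GV to 1-cell. By its construction it removes Bmp15 and the GV value of Zp3. With reads divided by 5, 1 site of the 3 genes was higher at each of the steps from GV to MII and from MII to 1-cell, and of the wider list 1, 4 and 9 sites were higher and 0 lower in each comparison. Holm adjustment left 1 site of the 3 genes higher from MII to 1-cell. Ratios of odds ratios whose interval reached 1 with reads divided by 5 were 1.52 for Gdf9 to Bmp15 and 1.86 for Zp3 to Bmp15 from MII to 1-cell, and 1.61 for Gdf9 to Bmp15 and 1.82 for Zp3 to Gdf9 from GV to 1-cell. The coverage minimums of 50 and 100 reads changed no call of a site of the 3 genes. No change in level of a site of the 3 genes reversed its direction under these alternatives. Scaled by the summed reads of each whole list, the coverage of Bmp15 from GV to 1-cell turned from 0.599-fold to 1.25-fold lower than the scale, and the folds of Gdf9 and Zp3 in the 3 comparisons were larger, from 2.89 to 28.9. Scaled by the summed reads of shared sites, Bmp15 stayed at 0.604-fold lower over that course. No paired analysis was possible because each stage had 1 library. Counting error and the limits of the lists bound what these libraries show.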

Other observations

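The 11 oocyte markers held 9 sites shared by GV and MII, of which 6 were higher and 0 lower, with a median change of 5.87 points. From MII to 1-cell 7 of 10 were higher, with a median of 8.60 points, and from GV to 1-cell 8 of 8, with 24.1 points. Over all shared sites, 19.6%, 51.3% and 66.1% were higher in these comparisons. At sites with at least 1000 reads in the earlier library the shares were 73.2%, 64.4% and 83.5%. The marker counts were not tested against these shares. Zar1, a maternal factor needed at the start of development, had a site at 14.8% of 10251 reads in GV and at 20.7% of 8371 reads in MII. Padi6, a part of the cytoplasmic lattices of the oocyte, had 0, 0 and 2 sites in the 3 lists, and so like Zp2 was listed in 1-cell alone.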
